A study of Mus musculus with 3 samples.

Results

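The genes described here were 36 members of the glycolysis and hypoxia program, measured by single-cell RNA sequencing in mouse gliomas. They were taken by symbol from a list and made up 36 of the 50262 genes in the table. Each was found as a row with counts, and Aldoa had a second identifier that held 0 UMIs. By role they comprised 2 glucose transporters, 15 glycolytic enzymes, 4 genes of lactate handling, 3 regulators of glycolytic flux, 4 genes of oxygen sensing and 8 other hypoxia targets.

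The gliomas arose in mice of mixed background with a conditional transgene for wild-type human EGFR, constitutive loss of Cdkn2a and a conditional luciferase reporter. A lentivirus for iCre (the study's methods name vectors with and without TGFa) was injected into the brain of adult animals, so the conditional alleles recombined where virus arrived, and every group analysed here, CD45+ cells included, came from such an animal. Brains were dissociated, and viable cells were sorted into CD45+ and CD45- fractions, CD45 being the pan-leukocyte surface protein encoded by Ptprc. There was 1 tumor sample at each of 3 stages (early, medium and late, the last labelled large), cells of 2 mice being pooled where they were few, as for the early stage, and normal brain was not analysed here. The 3 deposited samples are sequencing runs that each held all stages and both sorts, and 24 libraries were spread over them, so libraries of 1 tumor sample and sort are technical repeats.

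After filtering, 17781 cells remained, with 5381839 to 10808099 UMIs (unique molecular identifiers, each standing for 1 captured mRNA molecule) per sort and stage and 17 to 1751 cells per library. Of the 20811 deposited cells, 4593 shared their barcode with a cell of another library, 1498 of them within the same run. Levels are given as CPM, the UMIs of a gene per 1000000 UMIs of the same cells. In CD45+ cells Ptprc was at 250, 239 and 227 CPM (early, medium, late) and in CD45- cells at 15.9, 11.1 and 3.59, so the sorts mostly followed their labels. Neither sort was pure by the marker-defined classes described below. Of the CD45- cells, 247 of 2725 early and 71 of 1603 medium cells were microglia-like. Of 3983 medium CD45+ cells, 80 were Lgals1-type glioma-like and 102 glioma or oligodendrocyte progenitor-like. The level of a sort is a sum over many cell types, in which the number of cells of a type and the amount of its RNA per cell cannot be told apart.

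Glycolysis splits glucose into pyruvate, which is either oxidized in mitochondria or reduced to lactate and exported. Several of its steps are encoded by related genes with different tissue use, for example the hexokinases Hk1 and Hk2, the aldolases Aldoa and Aldoc, the enolases Eno1 and Eno2 and the lactate dehydrogenases Ldha and Ldhb. When oxygen is low, the prolyl hydroxylases encoded by Egln1 and Egln3 no longer mark HIF alpha subunits for degradation, and HIF-1 and HIF-2 (alpha subunits Hif1a and Epas1) raise transcription of many of these genes. In brain, GLUT1 (Slc2a1) and MCT1 (Slc16a1) are known for carrying glucose and lactate across the capillary wall.

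HIF dimers bind a short core sequence, so the 250 bases before each annotated start were searched for ACGTG and GCGTG on both strands (CACGT and CACGC when read on the other). A CACGTG palindrome counts as 2 matches, 1 on each strand. Promoters were in the RefSeq table (GRCm38.p6) for 32 members, with Ero1l listed as Ero1a, and Slc2a3, Bnip3l, Epas1 and Ndrg1 were missing. A motif stood in at least 1 promoter of 28 of these 32 members (87.5%), against 41.5% of the 27025 genes in the table. Counted by promoter, 36 of 45 (80.0%) held one, against 38.6% of 32851. Of the 32 members, the 4 without a match were Gpi1, Tpi1, Eno2 and Mif, which says only that these letters were not in these windows. A match is a description of the sequence and was not tied to binding or to any level reported here. The background was every gene in that table, expressed here or not. It was not matched to the members in base composition or in promoters per gene, although each searched string contains CG. The higher share of members is therefore no test of HIF binding sites.

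The promoters of 6 members follow, chosen because the comparisons below give these genes in detail and because the window overlapped no exon of the GENCODE M21 annotation. Hk2 and Pdk1 were higher in the CD45+ sort, and Ldha was too but lost its call in 4 of 12 alternatives. Egln3 is described in Arg1/Spp1-type macrophages, where it reached the level minimum only through those cells. Eno1 and Ldhb moved in opposite directions between glioma cell types. Each is read 5′ to 3′ on the strand of its gene, and capitals mark the motif.
Hk2 (chr6:82774455-82774704, minus strand): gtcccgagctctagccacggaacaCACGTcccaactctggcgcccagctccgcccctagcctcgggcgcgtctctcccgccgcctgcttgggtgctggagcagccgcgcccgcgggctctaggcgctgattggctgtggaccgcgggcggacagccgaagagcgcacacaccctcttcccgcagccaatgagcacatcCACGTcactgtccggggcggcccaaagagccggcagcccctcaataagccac
Ldha (chr7:46845554-46845803, plus strand): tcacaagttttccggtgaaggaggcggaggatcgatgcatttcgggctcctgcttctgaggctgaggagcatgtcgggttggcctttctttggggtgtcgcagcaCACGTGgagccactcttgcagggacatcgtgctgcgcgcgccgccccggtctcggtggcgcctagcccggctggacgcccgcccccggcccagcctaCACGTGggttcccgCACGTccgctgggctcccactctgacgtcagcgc
Pdk1 (chr2:71872974-71873223, plus strand): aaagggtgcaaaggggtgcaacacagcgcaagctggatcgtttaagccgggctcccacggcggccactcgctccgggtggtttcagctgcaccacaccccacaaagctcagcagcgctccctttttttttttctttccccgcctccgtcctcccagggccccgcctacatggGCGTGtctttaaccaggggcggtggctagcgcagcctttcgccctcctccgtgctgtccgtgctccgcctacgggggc
Egln3 (chr12:54203875-54204124, minus strand): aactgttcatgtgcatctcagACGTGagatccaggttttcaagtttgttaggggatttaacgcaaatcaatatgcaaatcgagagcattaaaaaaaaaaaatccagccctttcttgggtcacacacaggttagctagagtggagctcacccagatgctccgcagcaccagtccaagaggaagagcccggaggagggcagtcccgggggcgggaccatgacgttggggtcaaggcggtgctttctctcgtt
Eno1 (chr4:150236458-150236707, plus strand): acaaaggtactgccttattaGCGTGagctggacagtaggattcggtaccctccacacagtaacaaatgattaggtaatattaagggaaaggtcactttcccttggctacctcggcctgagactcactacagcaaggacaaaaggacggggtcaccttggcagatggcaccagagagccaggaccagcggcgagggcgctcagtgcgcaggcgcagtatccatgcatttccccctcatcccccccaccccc
Ldhb (chr6:142507958-142508207, minus strand): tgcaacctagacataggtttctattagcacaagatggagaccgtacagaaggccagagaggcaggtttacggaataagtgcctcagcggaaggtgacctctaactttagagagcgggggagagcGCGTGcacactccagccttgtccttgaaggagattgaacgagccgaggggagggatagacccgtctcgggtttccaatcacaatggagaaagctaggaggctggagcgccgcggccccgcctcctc
The Hk2, Pdk1, Egln3, Eno1 and Ldhb windows lay upstream of their genes. The Ldha window, with 5 matches the most of these 6, lay in an intron of the annotated Ldha gene, before the first of its 2 RefSeq starts.

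The sorts were compared to ask which members belong to the leukocyte side of the tumor and which to the tumor, glial and stromal side. The CD45+ sort had more of the inducible hexokinase Hk2, the lactate exporter Slc16a3 (MCT4) and the 3 flux regulators Pdk1, Pfkfb3 and Pfkfb4. The CD45- sort had more Ndrg1, Epas1, Aldoc, Ldhb, Eno2 and Slc16a1. The core enzymes Gapdh, Aldoa, Tpi1, Gpi1, Pgk1, Pgam1, Eno1 and Pkm did not pass the test. In the edgeR quasi-likelihood test paired by tumor sample (n = 3 tumor samples), 9 of 36 members (25%) were higher in CD45+ cells at an adjusted p under 0.05, against 20.4% of all 18433 genes tested. Another 10 (27.8%) were lower, against 25.7% of all genes. Both shares were near the background. The median log2 difference was -0.01 over members and -0.04 over all genes. Without TMM factors, which correct for composition, the median of all genes shifted to -0.40, so the fitted differences below are relative to that shift. Without them 14.05% of all genes were higher and 35.6% lower, and Ldha and Hif1a lost their call.

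Neither of the 2 transporters that bring glucose into cells passed in the paired test, but Slc2a3 was close to the threshold. Slc2a1 (GLUT1) was at 59.6, 78.5 and 57.8 CPM in early, medium and late CD45+ cells and at 164, 144 and 66.6 in CD45- cells, with log2 -0.48 ± 0.28 (SE) and adjusted p = 0.197. Slc2a3 (GLUT3) was at 33.4, 56.6 and 39.4 in CD45+ against 32.5, 29.3 and 36.5 in CD45- cells, with log2 0.73 ± 0.26 and adjusted p = 0.0513. Slc2a3 passed in 5 of 12 alternatives, namely without the replicate block (adjusted p = 0.0420), with every gene counted (0.0410), with every deposited cell (0.0447), without run 3 (0.0286) and without the early tumor sample (0.0327). The values of Slc2a1 were lower in CD45+ cells at every stage, but the gap was narrow in the late sample. Slc2a1 passed in 1 of 12 alternatives.

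Among the enzymes, paralogs divided between the sorts. Hk2 was at 225, 142 and 222 CPM in CD45+ cells and at 22.1, 18.1 and 11.9 in CD45- cells, a log2 difference of 3.87 ± 0.30 (adjusted p = 0.000142). Hk1, the hexokinase of most tissues, ran the other way at 25.4, 40.1 and 23.4 against 73.9, 75.6 and 78.8 (log2 -1.03 ± 0.24, adjusted p = 0.0104), a call lost without the late tumor sample (adjusted p = 0.0646). The groups did not overlap for either gene. The phosphofructokinases, which catalyse the committed step, also divided. Pfkl was at 53.2, 64.3 and 71.9 in CD45+ and 29.6, 29.9 and 49.7 in CD45- cells (log2 1.19 ± 0.21, adjusted p = 0.00319), and Pfkm was at 4.53, 6.37 and 6.50 against 22.8, 29.4 and 28.5 (log2 -1.86 ± 0.23, adjusted p = 0.000718). Pfkp did not pass (log2 -0.35 ± 0.30, adjusted p = 0.381). So of the 3 phosphofructokinase genes, 1 was higher, 1 lower and 1 not called. Of all 15 glycolytic enzymes, 2 (13.3%) were higher and 4 (26.7%) lower, against 20.4% and 25.7% of all genes.

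Aldoc, the aldolase typical of astrocytes, was at 6.20, 27.1 and 9.48 CPM in CD45+ cells and at 137, 197 and 77.3 in CD45- cells, with log2 -3.07 ± 0.38 and adjusted p = 0.000836. Eno2, the neuronal enolase, was at 6.75, 5.24 and 7.25 against 33.2, 28.05 and 51.0, with log2 -2.14 ± 0.23 and adjusted p = 0.000375. In both genes every CD45+ value lay below every CD45- value. Their widely used counterparts behaved otherwise, since Aldoa (log2 0.36 ± 0.28, adjusted p = 0.327) and Eno1 (log2 0.08 ± 0.26, adjusted p = 0.820) did not pass. Gapdh was at 567, 1215 and 1014 in CD45+ and 920, 778 and 940 in CD45- cells, so its groups overlapped (log2 0.39 ± 0.34, adjusted p = 0.394). Pkm, the pyruvate kinase gene, was at 301, 695 and 586 against 329, 359 and 498 (log2 0.72 ± 0.30, adjusted p = 0.0909). The other 4 enzymes had log2 differences from -0.33 (Pgk1) to 0.42 (Gpi1).

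Of the 4 genes of lactate handling, 2 (50%) were higher and 2 (50%) lower in CD45+ cells, against 20.4% and 25.7% of all genes, and the Ldha call was not stable. Slc16a3, the exporter of glycolytic cells, was at 22.8, 53.7 and 32.7 CPM in CD45+ and 1.73, 4.27 and 7.27 in CD45- cells (log2 3.47 ± 0.37, adjusted p = 0.000416). Slc16a1, which serves uptake and release, was at 21.5, 17.1 and 22.9 against 129, 135 and 83.4 (log2 -2.12 ± 0.25, adjusted p = 0.000570). Neither gene overlapped between sorts. Ldhb, the subunit that favours lactate oxidation, was at 40.2, 26.5 and 30.8 against 344, 206 and 215, with log2 -2.59 ± 0.22 and adjusted p = 0.000167. Ldha, the subunit that favours lactate formation, was at 177, 328 and 254 against 129, 184 and 243, with log2 0.82 ± 0.25 and adjusted p = 0.0314. The CD45+ and CD45- ranges of Ldha overlapped, and its late levels were close, and its call was lost without the early (adjusted p = 0.0678) or the medium tumor sample (0.195), without TMM factors (0.163) and without the replicate block (0.0622).

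The 3 regulators were higher in CD45+ cells, against 20.4% of all genes. Pfkfb3 and Pfkfb4, which set the level of an activator of phosphofructokinase, were at 116, 65.5 and 85.8 against 32.0, 24.4 and 31.6 (log2 1.94 ± 0.20, adjusted p = 0.000315) and at 23.2, 25.8 and 22.5 against 5.80, 5.95 and 19.6 (log2 1.77 ± 0.42, adjusted p = 0.0135). Pdk1, which encodes a pyruvate dehydrogenase kinase, was at 39.0, 23.4 and 34.2 against 18.1, 13.1 and 11.2 (log2 1.55 ± 0.23, adjusted p = 0.00134). In the late CD45- sample Pfkfb4 stood well above the earlier stages, and its call was lost without the early (adjusted p = 0.0689) or the medium sample (0.0621).

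The HIF alpha subunits parted between sorts. Epas1 was at 7.31, 9.25 and 12.3 CPM in CD45+ and at 139, 135 and 65.8 in CD45- cells, with log2 -3.16 ± 0.38 and adjusted p = 0.000799. Hif1a was at 90.7, 94.4 and 111 against 80.6, 75.9 and 83.8, with log2 0.66 ± 0.19 and adjusted p = 0.0267. The groups did not overlap for Hif1a, but its call was lost without TMM factors (adjusted p = 0.253), without the medium (0.125) and without the late sample (0.109). Egln1 (log2 -0.34 ± 0.19, adjusted p = 0.175) and Egln3 (log2 0.73 ± 0.34, adjusted p = 0.119) did not pass.

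Of the 8 other hypoxia targets, 1 (12.5%) was higher and 3 (37.5%) were lower in CD45+ cells, shares not far from the 20.4% and 25.7% of all genes. Ndrg1, which is also abundant in myelinating cells, was at 23.3, 18.4 and 19.0 CPM in CD45+ and 755, 570 and 350 in CD45- cells, with log2 -4.37 ± 0.29 and adjusted p = 0.000120. P4ha1, a subunit of the collagen prolyl hydroxylase, was at 187, 81.4 and 118 against 55.2, 61.4 and 73.0, with log2 1.32 ± 0.28 and adjusted p = 0.00744. Both separated without overlap. The vasodilator peptide gene Adm was at 4.35, 1.95 and 1.67 against 9.14, 11.6 and 8.88 (log2 -1.58 ± 0.39, adjusted p = 0.0131), and the mitophagy receptor gene Bnip3 at 19.3, 17.2 and 14.3 against 51.4, 32.9 and 29.5 (log2 -0.77 ± 0.21, adjusted p = 0.0222). The Adm call was lost without the medium (adjusted p = 0.0608) or the late sample (0.0607), and that of Bnip3 without the early (0.135) or the late sample (0.0711), with DESeq2 (0.0591) and without the replicate block (0.0680). Bnip3l, Ankrd37, Ero1l and Mif did not pass. Bnip3l shares near-identical sequence with the Bnip3l-ps row, which held 41.9% as many UMIs as Bnip3l, so its level is uncertain.

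**Figure D1:**
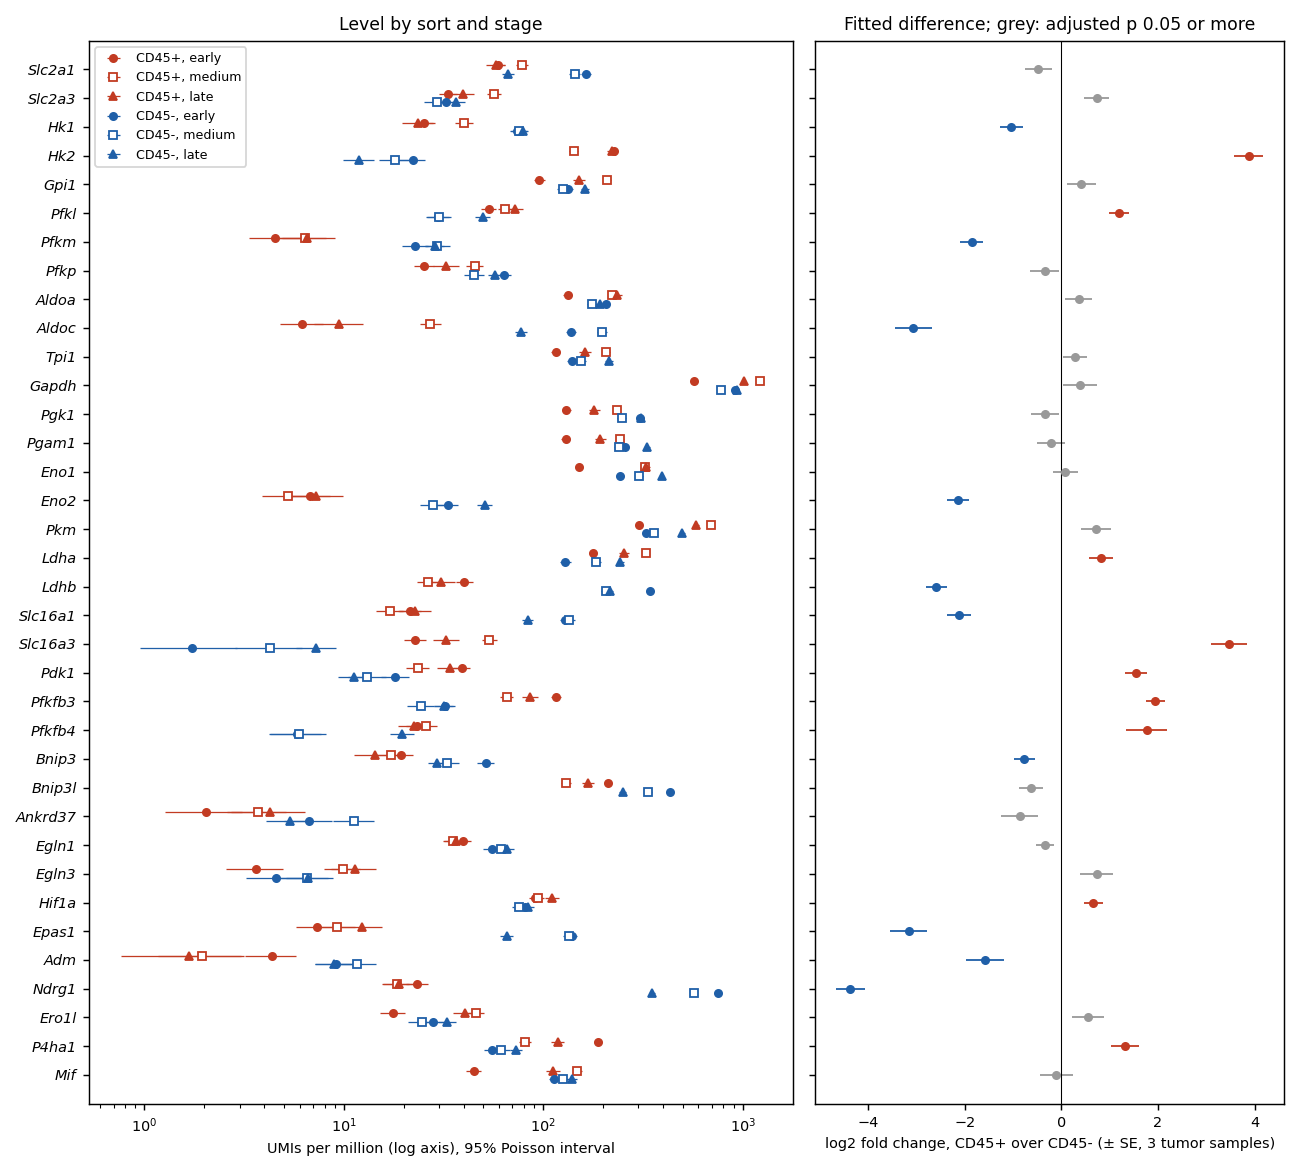
Levels of the 36 members by sort and stage, in CPM on a log axis with 95% Poisson intervals (left), and the fitted log2 difference of CD45+ over CD45- with its SE over 3 tumor samples (right). Hk2 and Slc16a3 sit furthest right at 3.87 and 3.47 and Ndrg1 furthest left at -4.37, while grey points mark members that did not pass.

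The direction was compared within sequencing runs, which gave 9 pairs of run and stage. Runs of a stage are technical repeats of the same tumor sample, so these counts add no replication to the paired test. The share of all genes with the same direction in every pair is not given here. In run 1 the CD45+ side rested on 136 early and 108 late cells. Hk2, Pfkl, Slc16a3, Pfkfb3, Hif1a and P4ha1 were higher in CD45+ cells in 9 of 9 pairs, Pdk1 and Pfkfb4 in 8 and Ldha in 7. Hk1, Pfkm, Aldoc, Eno2, Ldhb, Slc16a1, Bnip3, Epas1 and Ndrg1 were higher in 0 of 9 and Adm in 1. Among members that were not called, Bnip3l and Egln1 were also higher in 0 of 9 pairs, Slc2a1, Pgk1, Pfkp and Ankrd37 in 1, Pgam1 in 2, and Slc2a3 and Pkm in 7. Cell type markers moved with the sorts as well. The 10 microglia markers, all detected, summed to 6438 to 20338 CPM in CD45+ and 1696 to 2074 in CD45- cells. The 9 oligodendrocyte markers, also all detected, summed to 97.8 to 243 in CD45+ and 5214 to 10330 in CD45- cells, and the 8 choroid plexus markers to 268 to 501 and 3546 to 23900, with Aqp1 at 0 in the early CD45+ sort. Their part in the differences of the members was not tested.

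Other genes of the same pathways were counted from lists that did not overlap the members. Of 34 further glycolysis and pyruvate genes, 25 were tested, with 4 (16%) higher and 13 (52%) lower in CD45+ cells, against 20.4% and 25.7% of all genes, and a median log2 of -0.58. Hk3, a hexokinase of myeloid cells, was at 58.0, 94.4 and 57.6 against 4.44, 1.83 and 0.661 CPM (log2 5.42 ± 0.54, adjusted p = 0.000387), and the fructose transporter gene Slc2a5 reached log2 4.54 ± 0.67. At the other end, Slc16a8, Eno4 and Gpd1 fell by 3.96, 3.86 and 2.91 on the log2 scale. Of 40 further hypoxia-inducible and oxygen-sensing genes, 37 were tested, with 8 (21.6%) higher and 9 (24.3%) lower and a median of 0.26. Ppfia4 and the chemokine receptor gene Cxcr4 were highest in CD45+ cells (log2 4.43 and 4.00), and Ppp1r3c, Arnt2 and the collagen lysyl hydroxylase gene Plod2 lowest (-4.26, -3.66 and -3.02).

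The cells were next divided into marker-defined classes, none of whose markers is a member, and the members had been left out of clustering. Rows of near-identical sequence, such as Eno1b and Bnip3l-ps, had not been left out. Class levels are described without a test. Each gene is given with its class of highest level, over all stages. For some genes the range of the single stages that held at least 50 cells of the class is added.

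Several members peaked in 1 class. In endothelial-like cells (346 cells) Slc2a1 was at 1933 CPM (1745 to 2051 over 3 stages), against 617 in the next class, ependymal-like cells. Slc16a1 was at 1729 there (1498 to 1887), and the next class, fibroblast-like cells, had 220. Epas1 was at 1791 (1662 to 1962), followed by mural-like cells at 1093. These 3 genes of barrier transport and oxygen sensing thus had the same leading class. Ankrd37 was also highest there, at 83.1 from 48 UMIs.

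Neural and glial classes led for other members. Aldoc was at 3494 CPM in astrocyte-like cells (165 cells, 3087 in the early and 3974 in the medium sample) and at 191 in glioma or oligodendrocyte progenitor-like cells. Eno2 was at 329 in neuron or neuroblast-like cells and at most 32.3 in any other class. Ndrg1 was at 1585 in oligodendrocyte-like cells (2735 cells, 1540 to 1706) and at 559 in endothelial-like cells. Oligodendrocyte-like cells also had the highest level of Bnip3l, at 674 (658 to 703), and the lowest of Ldha, at 15.1. Ldhb was at 1174 in choroid plexus-like cells (380 cells) and at 619 in astrocyte-like cells. Choroid plexus-like cells had the highest levels of Hk1 (188), Pfkp (184), Aldoa (458), Gapdh (1946), Pgk1 (702) and Eno1 (820) as well, although for Hk1 and Pfkp the stage range of neuron or neuroblast-like cells overlapped theirs.

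In the CD45+ sort the leading classes differed by gene. Microglia-like cells (5893 cells) had the highest Hk2, at 273 CPM (264 to 308), the highest Pfkfb3 at 136 (132 to 145) and the highest P4ha1 at 196 (142 to 214). Hk2 was at 161 in macrophage or monocyte-like cells and at 0 in endothelial-like cells, where 0 UMIs of 577748 allow up to 5.19 CPM. Neutrophil-like cells (325 cells) led for Slc16a3 at 281, with 49.3 in macrophage or monocyte-like cells, for Slc2a3 at 391 and for Pfkfb4 at 98.4. The levels of the 52 early and 246 medium neutrophil-like cells were 428 and 259 for Slc16a3 and 338 and 378 for Slc2a3, and the late sample held fewer than 50 such cells. Mast cell or basophil-like cells (94 cells) had the highest Gpi1 (487), Pgam1 (576) and Ero1l (201). The leading genes of that cluster included Ctsg, Elane, Mpo and Prtn3, which are genes of granulocyte precursors, and it met 4 neutrophil markers beside 5 of its own. Their part in these levels was not tested. Among stromal cells, fibroblast-like cells (220 cells) led for Ldha at 473, Adm at 97.9 and Egln3 at 35.0, the last from 30 UMIs.

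**Figure D2:**
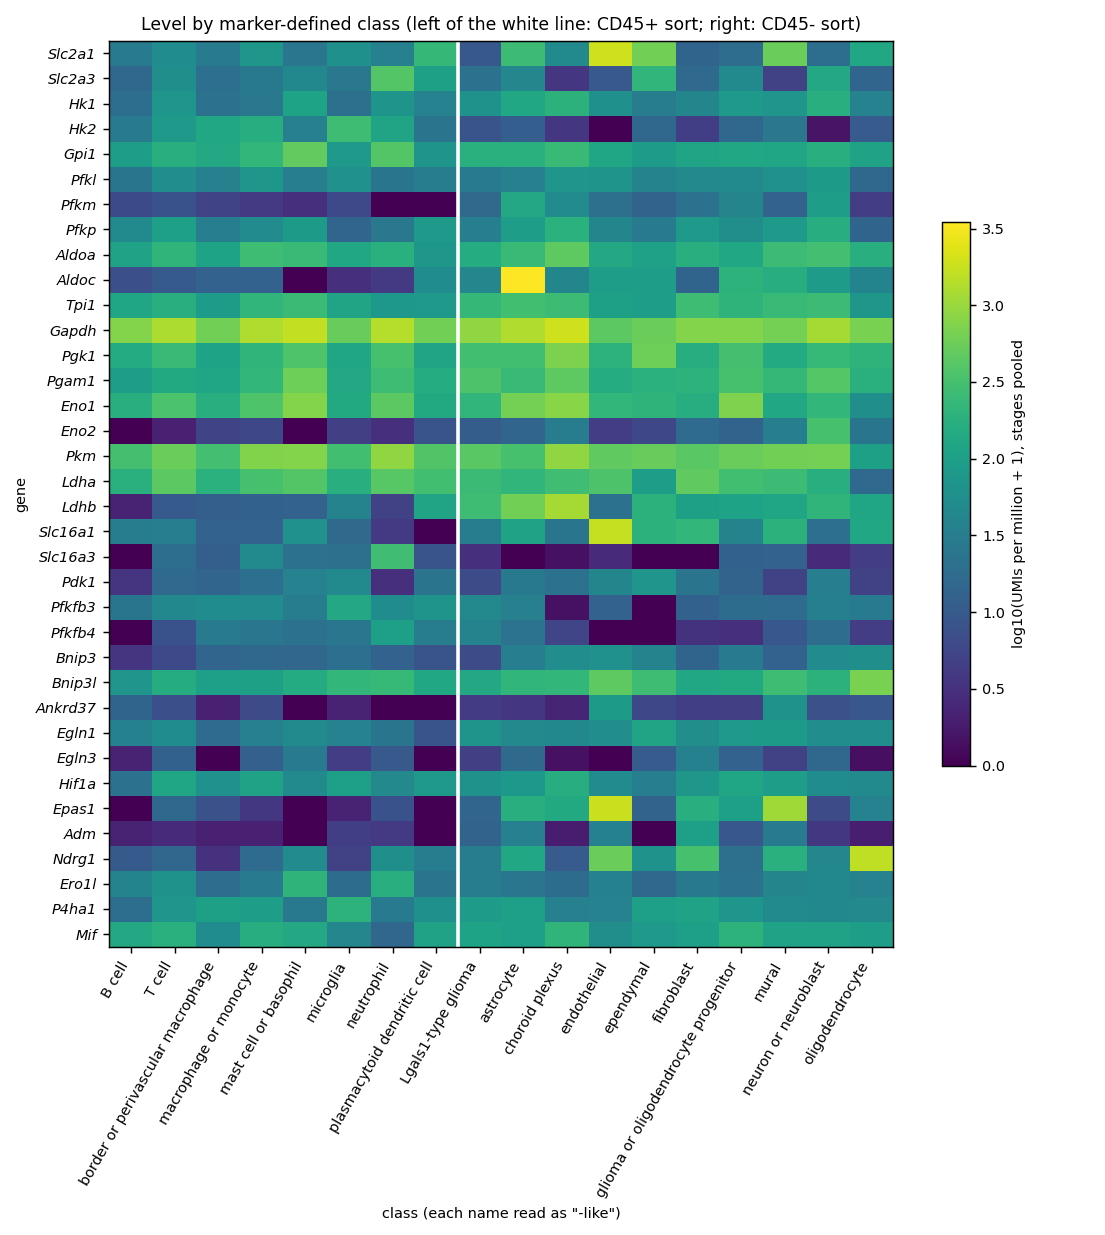
Level of each member in each marker-defined class, as log10 of CPM plus 1, with stages pooled and CD45+ classes left of the white line. Bright cells include Aldoc in astrocyte-like cells (3494 CPM) and Gapdh in choroid plexus-like cells. Slc2a1, Slc16a1 and Epas1 are bright in endothelial-like cells (1933, 1729 and 1791) and Ndrg1 in oligodendrocyte-like cells (1585).

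The order of neighbouring classes was not always clear beyond counting error. For Hif1a, choroid plexus-like cells (158), glioma or oligodendrocyte progenitor-like cells (124) and T cell-like cells (123) led among named classes, with stage ranges of 144 to 157, 103 to 152 and 89.7 to 245 that overlapped. For Ldha, fibroblast-like (473), T cell-like (442) and neutrophil-like cells (423) had overlapping stage ranges too. Slc2a1, Slc16a1, Aldoc, Eno2 and Ndrg1 had a leading class whose lowest stage lay above the highest stage of the next class.

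The 15 glycolytic enzyme genes were then summed in each class and stage, a sum that the most abundant genes dominate. Microglia-like cells were at 1842, 2131 and 2135 CPM in early, medium and late samples, and oligodendrocyte-like cells at 1651, 1603 and 1932. Macrophage or monocyte-like cells were at 2945, 3911 and 4207, border or perivascular macrophage-like cells at 1308, 2643 and 2993 and T cell-like cells at 2533, 3907 and 4031. In these 3 immune classes, as in microglia-like cells, the early sample was lowest. The macrophage or monocyte-like class was made up of different clusters at each stage: a cluster rich in Arg1 cells held 58 of its 218 early, 117 of its 1170 medium and 605 of its 687 late cells, and a cluster with few Arg1 cells held 711 of the medium cells. CD45+ cells of unnamed clusters were at 4648 in the medium (698 cells) and 4191 in the late sample (56 cells), and mast cell or basophil-like and neutrophil-like cells at 5778 and 4404 in the medium sample. Neutrophil-like cells were at 3404 in the early sample. Glioma or oligodendrocyte progenitor-like cells were at 2409, 3342 and 3902. Astrocyte-like cells were at 6969 early and 7765 medium, of which Aldoc alone was 3087 and 3974, and choroid plexus-like cells were at 6383 and 5424. Each stage was 1 tumor sample, so no difference between stages was tested.

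**Figure D3:**
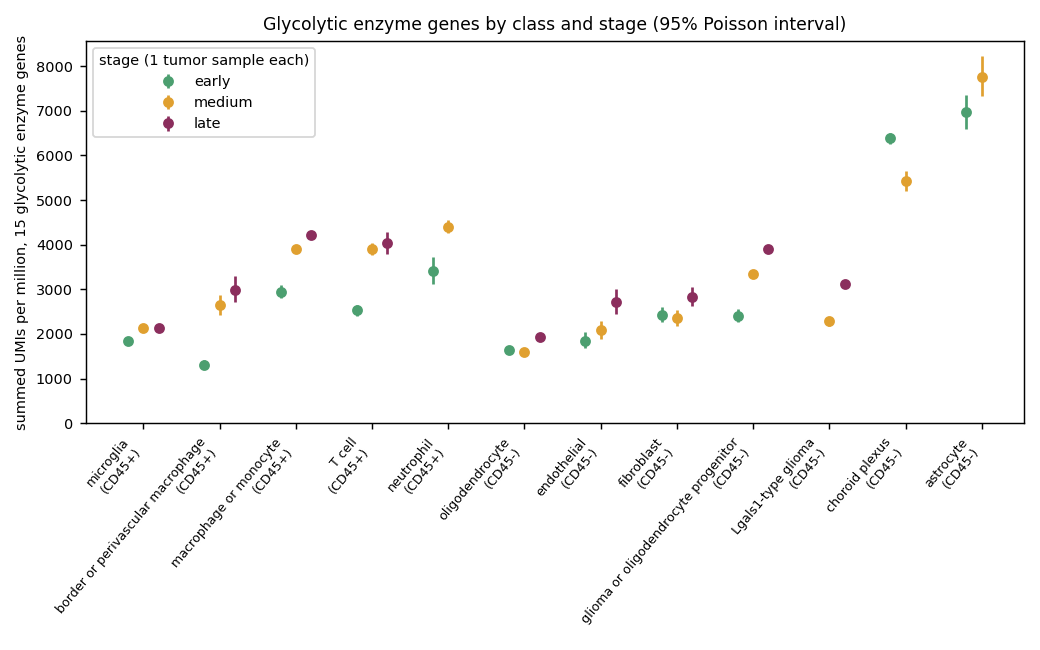
Summed level of the 15 glycolytic enzyme genes by class and stage, in CPM with 95% Poisson intervals (counting error only). Macrophage or monocyte-like cells lay at 2945 early and 4207 late, while microglia-like cells lay between 1842 and 2135.

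Single enzymes were spread in the same way. In macrophage or monocyte-like cells Pkm was at 476, 728 and 844 CPM and Gapdh at 979, 1360 and 1405 in the early, medium and late sample. In microglia-like cells Pkm was at 284, 344 and 330 and Gapdh at 492, 626 and 593. Hk2 had the reverse order, with 112, 141 and 200 in macrophage or monocyte-like and 264, 278 and 308 in microglia-like cells. Mif, the macrophage migration inhibitory factor gene, was at 89.4, 162 and 175 in macrophage or monocyte-like and 37.9, 65.8 and 43.4 in microglia-like cells. Within the Arg1-rich cluster of the macrophage or monocyte-like class, the order of stages was another, with Mif at 210, 301 and 178, Pkm at 637, 1099 and 854 and Gapdh at 1412, 1857 and 1421, while Hk2 was at 144, 181 and 206. In glioma or oligodendrocyte progenitor-like cells, Epas1 was at 334, 108 and 54.0 and Aldoc at 371, 271 and 117, while Eno1 was at 405, 631 and 809. This class too was made up of different clusters by stage. A cluster with the transgene at 0, 2437 and 2700 CPM held 45 of its 174 early, 227 of its 312 medium and 559 of its 618 late cells, and the other, at 0, 0 and 577, held the rest. Within the first cluster Epas1 was at 128, 51.6 and 30.5, Aldoc at 192, 220 and 105 and Eno1 at 304, 646 and 814. Within the second Epas1 was at 410, 382 and 431, Aldoc at 436, 517 and 303 and Eno1 at 442, 562 and 735. The transgene hsEGFR was at 7.28, 706 and 1220 CPM in all CD45- cells of the early, medium and late sample, and its part in these levels was not tested.

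Tumor cells of 2 types were compared within the CD45- sort, among cells with at least 2 UMIs of the human EGFR transgene. Pdgfra-type cells held at least 2 Pdgfra UMIs and more Pdgfra than Lgals1, and Lgals1-type cells the reverse. Pdgfra marks oligodendrocyte progenitors, and Lgals1 encodes galectin-1. The medium sample had 118 Pdgfra-type and 59 Lgals1-type cells and the late sample 258 and 308, while the early sample had 0 and 1 and could not enter. The median UMIs per cell of Pdgfra-type and Lgals1-type cells were 7371 and 7931 in the medium sample. In the late sample they were 5935 and 8889.5. Since the gate counts UMIs of single genes, entry depended on depth. Lgals1-type cells had more Ldhb and Pfkfb3, and less Aldoc, Eno1, Slc2a3, Epas1 and Pfkm. Of 36 members, 32 passed the filter on low counts (not Slc16a3, Pfkfb4, Ankrd37 and Egln3). By edgeR's quasi-likelihood test with tumor sample as a block (n = 2 pairs, 1 residual degree of freedom), 2 of the 32 (6.25%) were higher in Lgals1-type cells, against 9.91% of 12107 genes. Another 5 (15.6%) were lower, against 8.37%. The median log2 difference was -0.08 over the members tested and -0.01 over all genes, and the latter shifted to -0.18 without TMM factors.

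Eno1, which encodes the enolase of most tissues, had the smallest adjusted p. It was at 245 and 273 CPM in medium and late Lgals1-type cells and at 639 and 777 in Pdgfra-type cells, a log2 difference of -1.28 ± 0.19 (adjusted p = 1.27e-05). The Eno1b row, which shares near-identical sequence and held 44.7% as many UMIs, had a log2 difference of -1.24 ± 0.22 in the same direction. Ldhb was at 218 and 281 in Lgals1-type and 113 and 127 in Pdgfra-type cells (log2 1.23 ± 0.22, adjusted p = 0.000145). Eno1 and Ldhb passed the test under all alternatives that were run. Aldoc was at 78.4 and 32.7 against 255 and 110 (log2 -1.55 ± 0.25, adjusted p = 3.23e-05), and lost its call without the replicate block (adjusted p = 0.257). Within each tumor sample the Aldoc level of Pdgfra-type cells was the higher, but late Pdgfra-type cells lay near medium Lgals1-type cells.

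The remaining 4 calls were weaker. Epas1 was at 18.7 and 10.7 CPM in Lgals1-type and 63.5 and 40.2 in Pdgfra-type cells (log2 -1.68 ± 0.42, adjusted p = 0.00396). Slc2a3 was at 18.7 and 19.3 against 60.2 and 55.3 (log2 -1.41 ± 0.39, adjusted p = 0.00953). Both were separated between types in each sample, and both lost their call with DESeq2 (adjusted p = 0.195 and 0.282) and without run 3 (0.137 and 0.0894). The Epas1 call was also lost without the replicate block (0.0515), and that of Slc2a3 with at least 5 UMIs of the type gene (0.102) and without run 2 (0.0758). Pfkm was at 14.9 and 14.01 against 51.3 and 34.9 (log2 -1.32 ± 0.43, adjusted p = 0.0306, 0.00690 to 0.469 over the alternatives). Pfkfb3 was at 67.2 and 40.4 against 6.69 and 25.6 (log2 1.76 ± 0.55, adjusted p = 0.0462, 1.77e-05 to 0.460 over the alternatives). Each of these last genes lost its call in at least 8 alternatives, and the Pfkfb3 value of medium Pdgfra-type cells rested on 6 UMIs.

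Most core enzymes did not separate the types. Gapdh was at 788 and 1026 CPM in Lgals1-type and 798 and 882 in Pdgfra-type cells (log2 0.28 ± 0.18, adjusted p = 0.331), Pgk1 at 232 and 343 against 250 and 356 (log2 0.09 ± 0.20, adjusted p = 0.844), and Ldha at 226 and 295 against 310 and 336 (log2 -0.14 ± 0.21, adjusted p = 0.742). The SEs of about 0.2 leave room for small differences. None of the 7 hypoxia targets tested passed, where 9.91% of all genes were higher and 8.37% lower. Bnip3 was at 11.2 and 4.34 against 17.8 and 23.3 (log2 -1.56 ± 0.63, adjusted p = 0.0889). Hif1a was at 56.0 and 72.1 against 80.2 and 122 (log2 -0.49 ± 0.28, adjusted p = 0.258). Pfkfb4, left out by the filter, was at 7.47 and 48.4 in Lgals1-type and 3.34 and 5.24 in Pdgfra-type cells, the late Lgals1-type value resting on 145 UMIs.

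**Figure D4:**
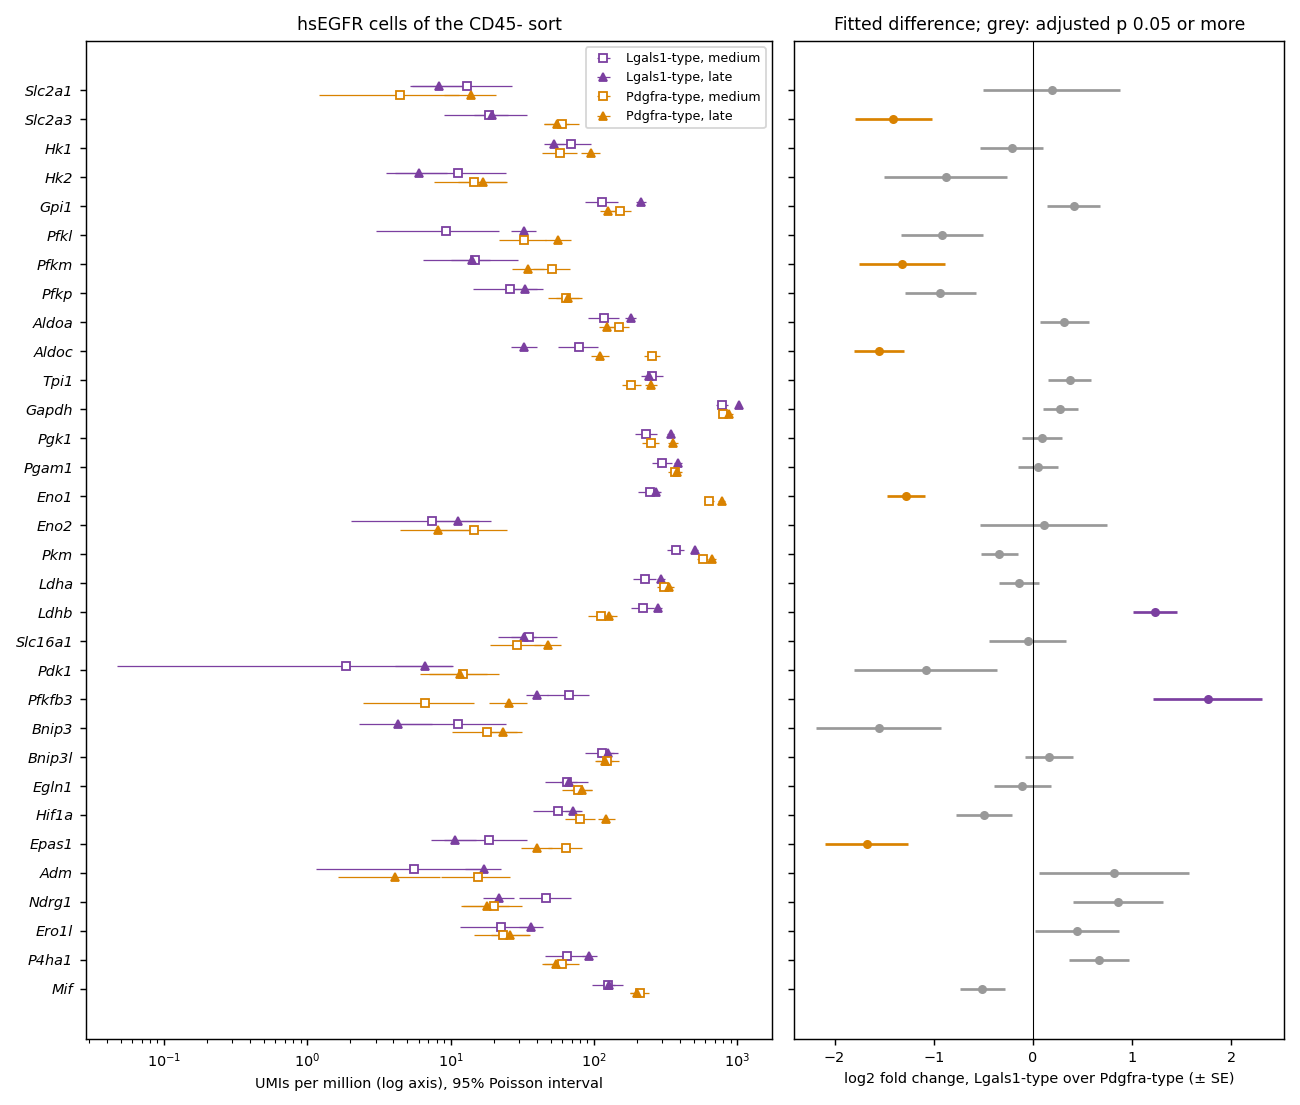
Levels of the 32 members tested in Lgals1-type and Pdgfra-type hsEGFR cells of the medium and late tumor samples, in CPM on a log axis with 95% Poisson intervals (left), and the fitted log2 difference with its SE (right). Ldhb and Pfkfb3 lie right of 0 at 1.23 and 1.76, and Eno1, Pfkm, Slc2a3, Aldoc and Epas1 lie left of 0 between -1.28 and -1.68, with all other members in grey.

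Of the further glycolysis and pyruvate genes, 16 were tested, with 2 (12.5%) higher and 1 (6.25%) lower in Lgals1-type cells, against 9.91% and 8.37% of all genes. Bsg, the chaperone of monocarboxylate transporters, was at 426 and 558 CPM against 263 and 274 (log2 1.04 ± 0.20, adjusted p = 0.000276), Gpd1 rose by 2.14, and Slc16a7 (MCT2) fell by 2.38. Of the further hypoxia genes, 33 were tested, with 5 (15.2%) higher and 4 (12.1%) lower. The heme oxygenase gene Hmox1 was at 222 and 115 against 41.2 and 47.1 (log2 1.97 ± 0.29, adjusted p = 3.12e-05), and Rab20 and Cited2 rose by 2.28 and 1.63. The angiogenic factor gene Vegfa was at 7.47 and 22.7 against 53.5 and 60.5 (log2 -1.65 ± 0.42, adjusted p = 0.00501), and Ak4 and Bhlhe40 had log2 differences of -2.88 and -1.30. The 10 microglia markers, Sparc among them, summed to 3275 and 3966 in Lgals1-type and 426 and 682 in Pdgfra-type cells, and Siglech, Gpr34, P2ry13 and Cx3cr1 were at 0 in the medium Lgals1-type cells. The 7 myeloid genes checked summed to 3.34 to 14.5 in all 4 groups of cells. Cell cycle genes (6) summed to 626 and 1027 in Lgals1-type and 858 and 1372 in Pdgfra-type cells, and stress-response genes (6) to 5544 and 3966 against 9710 and 9009. Their part in the differences was not tested.

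Macrophages with both Arg1 and Spp1 transcripts were compared with other myeloid cells of the CD45+ sort. Arg1 encodes arginase 1 and Spp1 encodes osteopontin. Such cells, with at least 1 UMI of each within the macrophage or monocyte-like class, numbered 0, 9 and 120 in the early, medium and late tumor samples. At least 20 were required, so the comparison held 1 tumor sample, and no test across samples could be made. Ratios of the late sample are given with 95% counting intervals, and a change of at least 1.5-fold was counted where the mean of both levels reached 20 CPM. Arg1/Spp1-type cells were deeper, at a median of 3411 UMIs per cell against 2010 in the 1661 other myeloid cells and 2616 in the 567 other macrophage or monocyte-like cells.

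Other myeloid cells here were the 567 other macrophage or monocyte-like, 1031 microglia-like and 63 border or perivascular macrophage-like cells, without neutrophil-like, mast cell or basophil-like, dendritic cell-like and unnamed cells. Against these, 17 of 25 members measured (68%) were at least 1.5-fold higher, against 14.8% of 6638 genes, and 1 (4%) was lower, against 19.8%. The median ratio was 1.69 over members and 0.99 over all genes. Slc16a1 and Egln3 reached the mean of 20 CPM only through Arg1/Spp1-type cells, so the level minimum favoured their being counted as higher. With 20 CPM required of each group, 15 of 23 members were higher and 1 lower, where 12.3% of 5812 genes were higher and 15.95% lower. The enzymes made up 9 of the 17, out of 11 measured, and Ldha and Slc16a3 were also among them. Among the 17, the intervals of Pfkp (1.69, 0.94 to 2.86) and Ero1l (1.70, 0.96 to 2.83) included 1. Pkm was at 1067 against 534 CPM (ratio 2.00, 1.80 to 2.21), Tpi1 at 291 against 144 (2.02, 1.66 to 2.45) and Gapdh at 1574 against 932 (1.69, 1.56 to 1.83). Egln3, a HIF target that also acts on HIF, was at 34.1 against 8.64 (3.95, 2.00 to 7.45), from 15 and 34 UMIs. Pfkfb3 was the member that was lower, at 54.6 against 103 (0.53, 0.34 to 0.80), and Hk2 was at 205 against 259 (0.79, 0.63 to 0.98). Neither was lower than in the other macrophage or monocyte-like cells alone. There Pfkfb3 was at 54.6 against 54.2 (1.01, 0.61 to 1.59) and Hk2 at 205 against 199 (1.03, 0.81 to 1.30).

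Against other macrophage or monocyte-like cells alone, fewer members differed. In the late sample 605 cells of this class were in the Arg1-rich cluster and 82 were outside it. Most of the 567 other cells were thus of the same cluster as most Arg1/Spp1-type cells, so this was largely a comparison within 1 cluster. Of 26 measured, 6 (23.1%) were at least 1.5-fold higher, against 10.9% of 6408 genes, and 1 (3.85%) was lower, against 10.3%. Slc16a1 and Egln3 again reached the level minimum only through the Arg1/Spp1-type cells, and Pfkfb4 only through the others. With 20 CPM required of each group, 4 of 23 members were higher and 0 lower, where 7.67% of 5753 genes were higher and 7.72% lower. Slc2a1 was at 130 against 53.1 CPM (ratio 2.44, 1.72 to 3.44), Slc16a1 at 29.6 against 12.4 (2.39, 1.10 to 5.00) and Slc16a3 at 63.7 against 38.3 (1.66, 1.03 to 2.63), while Slc2a3 was at 20.5 against 27.1 (0.75, 0.32 to 1.56). The oxygen sensor Egln1 was at 61.4 against 35.4 (1.74, 1.06 to 2.78), and Egln3, below the minimum in the other cells, at 34.1 against 12.97 (2.63, 1.27 to 5.31). Pgam1 was the only enzyme past 1.5-fold, at 341 against 189 (1.80, 1.48 to 2.20). Gapdh (1.16), Pkm (1.36), Tpi1 (1.44), Eno1 (1.13) and Ldha (1.14) were closer to 1, and Hif1a was at 0.89 (0.64 to 1.21). Pfkfb4 was lower, at 11.4 against 31.8 (0.36, 0.11 to 0.89), from 5 UMIs. The count of 7 depended on the sequencing run, being 4 without run 2 (2 higher, 2 lower) and 12 without run 3 (10 higher, 2 lower), where 15.8% and 17.7% of all genes were higher and 14.3% and 14.8% lower. It was 17 when cells were thinned to 1500 UMIs (13 higher, 4 lower), where 24.6% of all genes were higher and 18.9% lower. Of the further glycolysis genes, 3 of 11 measured (27.3%) were higher and 1 (9.09%) lower, and of the further hypoxia genes 2 of 21 (9.52%) were higher and 1 (4.76%) lower, beside 10.9% and 10.3% of all genes. Against other myeloid cells the further glycolysis genes had 1 of 10 (10%) higher and 2 (20%) lower and the further hypoxia genes 10 of 21 (47.6%) higher and 3 (14.3%) lower, beside 14.8% and 19.8% of all genes.

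**Figure D5:**
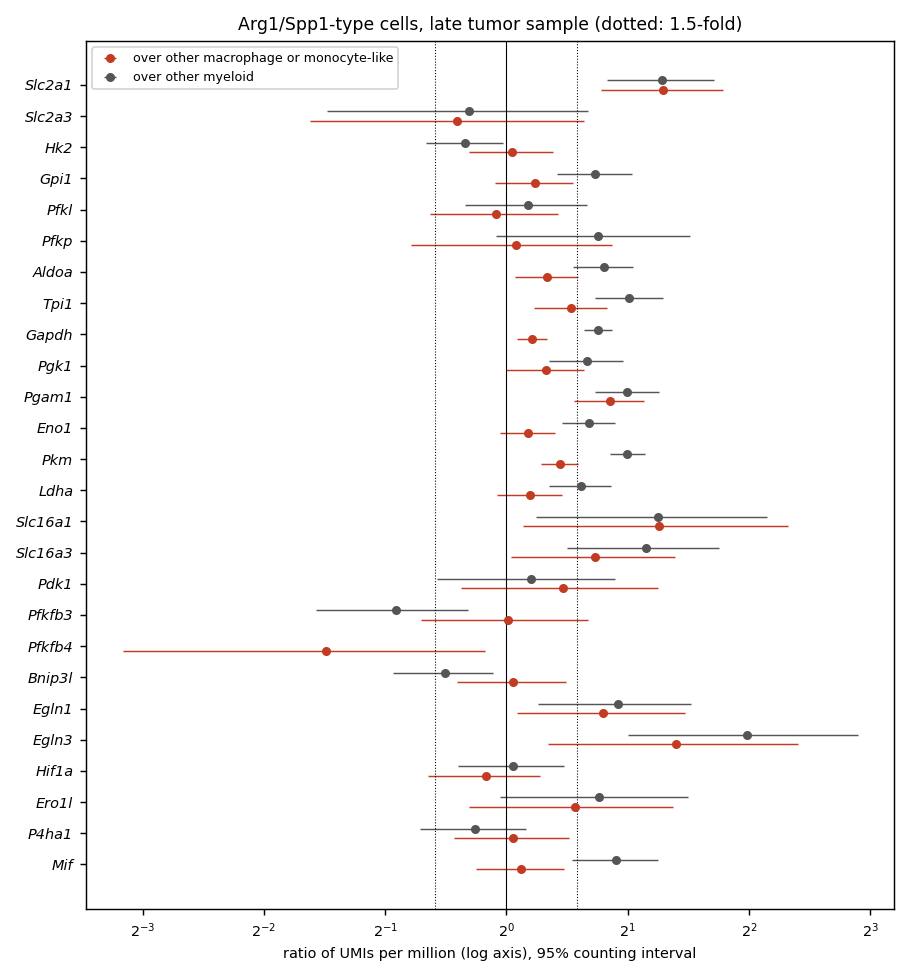
Ratio of each member in Arg1/Spp1-type cells of the late tumor sample over other myeloid cells (grey) and over other macrophage or monocyte-like cells (red), on a log axis with 95% counting intervals; dotted lines mark 1.5-fold. Slc2a1 lies at 2.43 and 2.44 in the comparisons, whereas Pkm lies at 2.00 over other myeloid and at 1.36 over other macrophage or monocyte-like cells.

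The 10 microglia markers summed to 5173 CPM in Arg1/Spp1-type cells, 16128 in other myeloid cells and 6146 in other macrophage or monocyte-like cells, and the 14 macrophage or monocyte markers, Arg1 among them, to 9320, 3438 and 6773. Ly6c2, Ly6i and Ms4a4c were at 0 in Arg1/Spp1-type cells. Their part in the ratios was not tested. The class comprised 3 clusters, of which 1 also had the dendritic cell genes Xcr1 and Itgae among its leading genes. In 1 cluster of 780 CD45+ cells, 30.8% of cells held Arg1, against 0.133% and 3.13% in the others. Taken whole, that cluster had Slc2a1 at 66.4, 67.3 and 71.7 CPM in early, medium and late samples (58, 117 and 605 cells), and Mif at 210, 301 and 178. In the cluster of 752 cells with the fewest Arg1 cells, the medium sample (711 cells) had Slc2a1 at 75.4 and Mif at 139.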

How the data were processed

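Single cells of 3 tumor samples (early, medium, late), sorted as CD45+ or CD45-, were encapsulated by inDrop. The authors aligned reads with RapMap in bcbio-nextgen to the GRCm38 transcriptome with transgene sequences added, and deposited raw UMI counts per gene and cell. The deposited annotation table gives sort, stage and run of each library. The study's methods describe removal of ambient RNA and of doublets. Whether this was done before deposit is not given in the sources used here. The members and gene lists were chosen with earlier results of these data known.

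Cells with at least 500 UMIs, 500 genes and at most 20% mitochondrial UMIs were kept, and Scrublet calls (expected 6%, libraries of at least 100 cells, scanpy 1.11.5) were removed. Leiden clusters (resolution 1, seed 1), made without the members, were named from marker lists. Classes needed 50 cells per sort and stage. Raw counts were summed per tumor sample and group, since libraries are technical repeats, and tested with edgeR 4.0.16 (R 4.3.3, TMM, filterByExpr, quasi-likelihood, two-sided) with the tumor sample as a block and Benjamini-Hochberg adjustment over all genes, at 0.05. Both sorts come from the same tumor sample, and deviations of paired sums correlated at 0.3815, 0.2791 and 0.3071 (0.3631 between glioma types). The SE is the log2 difference divided by the square root of F. Arg1/Spp1-type cells reached 20 cells in 1 tumor sample, so the planned test could not be made and ratios are given instead. On simulated counts with 200 genes changed, 25.8% of 2-fold and 93.8% of 4-fold changes were recovered between sorts (18131 genes, 3 false calls), and 14.3% and 81.7% between glioma types (11587 genes, 2 false calls). The simulated counts had 1 dispersion for all genes, no difference between tumor samples and far fewer changed genes than were called here. These shares and false calls therefore need not hold for the real counts. Poisson and ratio intervals (95%) cover counting error only, and a count of 0 allows up to 3 counts. All 36 members could be named, and other genes only as gate genes, markers, genes on which a result turns, or the 3 highest and 3 lowest calls of each list. One further allele of the mice and 1 gene of these lists are not reported here. DESeq2 1.42.0, no TMM, other filters and gates, left-out runs and left-out tumor samples were alternatives.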

Additional observations from a re-analysis of the deposited data

Results flagged for a closer look

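Within sequencing runs, 5 members had all runs of 1 stage in 1 direction between the sorts and all runs of another stage in the opposite direction (13.9% of 36, against 7.29% of the 18433 genes tested between sorts). The difference between stages was not tested, and each stage is 1 tumor sample. The values are log2 of CD45+ over CD45- CPM without TMM factors, unlike the fitted differences. Some directions rested on small margins. In early run 1, with 136 CD45+ cells, Gpi1 was at 131.78 against 133.41 CPM and Tpi1 at 121.02 against 124.65. Gapdh was at -0.7 in the early sample, against 0.64 (medium) and 0.11 (late). Aldoa was at -0.63 in the early sample, against 0.33 (medium) and 0.28 (late). Gpi1 was at 0.73 in the medium and -0.47 in the early sample, Tpi1 at 0.42 and -0.27, and Mif at 0.23 and -1.34. In the late sample the runs did not share 1 direction for these last 3 genes, whose CD45+ and CD45- levels over all runs were 151 and 162 CPM for Gpi1, 162 and 214 for Tpi1 and 112 and 140 for Mif. None of the 5 passed the test between sorts. The microglia markers summed to 20338 CPM in the early CD45+ sort against 6438 and 13017 in the medium and late sort, and the choroid plexus markers to 23900 in the early CD45- sort against 9785 and 3546. Their part in these values was not tested.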

How the results depend on the processing

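Between sorts, 19 members were called, and 15 to 21 under the alternatives (15 to 19 without 1 tumor sample, 18 without the replicate block), while 12.5% to 21.3% of all genes were higher and 17.3% to 35.6% lower. Over the 36 members and 12 alternatives, 394 values kept direction and side of the threshold, 12 passed it anew, 16 lost it and 10 changed sign. The sign changes were of members not called. Without TMM factors Aldoa was at -0.0045, Tpi1 at -0.083 and Eno1 at -0.28, and without the replicate block Mif was at 0.058. Between glioma types, 7 members were called, against 11 without TMM factors (2 higher, 9 lower), 3 with DESeq2, 3 without the replicate block, 4 with at least 5 UMIs of the type gene, 4 without run 2 and 3 without run 3. Over all genes, 2213 calls became 2433 without TMM factors (7.98% higher, 12.1% lower), 880 with DESeq2, 1162 without the block, 1021 with 5 UMIs, 1318 without run 2 and 990 without run 3. Sign changes here, again of members not called, were Pgk1 -0.083, Pgam1 -0.12, Eno2 -0.063 and Bnip3l -0.016 without TMM factors, Eno2 -0.045 with DESeq2, Eno2 -0.15 and Slc16a1 0.087 with 5 UMIs, Eno2 -0.023, Ldha 0.048 and Slc16a1 0.020 with both sorts, Slc2a1 -0.0037 with doublets kept, Hk1 0.042 and Pgam1 -0.13 without run 1, Slc16a1 0.073 without run 2, and Pgk1 -0.027 and Eno2 -0.033 without run 3. For Arg1/Spp1-type over other macrophage or monocyte-like cells, 7 members past 1.5-fold (6 higher, 1 lower) became 14 by cluster (6 and 8), 11 at Leiden resolution 2 (10 and 1), 12 with at least 2 UMIs of each gate gene (10 and 2), 4 without run 2 (2 and 2), 12 without run 3 (10 and 2), 17 when thinned (13 and 4) 16 with every gene counted (10 and 6) and 4 with 20 CPM required of each group (4 and 0). Of all genes, 10.9% were higher and 10.3% lower, and in those settings, in the same order, 19.9% and 27.7%, 14.7% and 13.5%, 17.4% and 12.9%, 15.8% and 14.3%, 17.7% and 14.8%, 24.6% and 18.9%, 20.6% and 37.6%, and 7.67% and 7.72%. Against other myeloid cells the 18 (17 higher, 1 lower) became 14 by cluster (11 and 3, with 13.3% and 23.9% of all genes), 27 with every gene counted (20 and 7, with 16.8% and 49.2%), and 16 to 22 otherwise, with 12.3% to 25.4% of all genes higher and 15.95% to 24.96% lower. At resolution 2 the late groups were 87 and 356 cells in place of 120 and 567, as 192 late cells of the macrophage or monocyte-like class fell into unnamed and 49 into dendritic cell-like clusters. The causes were not tested. Leaving out the cluster with dendritic cell markers, or glioma cells with 3 or more myeloid UMIs, and requiring 20 CPM of each group were chosen after seeing the data. Fits without TMM, with DESeq2, without the block or without a tumor sample were not run for the Arg1/Spp1 comparisons, which hold 1 tumor sample. The thinned fit was not run for glioma types, where thinning left 12 Lgals1-type cells in the medium sample.
Without 1 tumor sample each, log2 ranges that crossed 0 were Tpi1 from -0.012 to 0.46, Eno1 from -0.15 to 0.36, Pfkp from -0.75 to 0.049, Pgk1 from -0.68 to 0.016, Pgam1 from -0.56 to 0.072 and Mif from -0.51 to 0.40.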

Other observations

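The following members of T cell-like cells were chosen after their values were seen. Ero1l, an oxidase of protein folding, was at 30.9 and 29.2 CPM in the early and medium sample and at 282 (69 UMIs) in the late sample (112 cells). Hif1a was at 89.7, 113 and 245, and Epas1 at 1.55, 1.17 and 93.9, the last from 23 UMIs. Each stage is 1 tumor sample, so these differences were not tested. In neutrophil-like cells Ero1l was at 55.2 in the early and 198 in the medium sample.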
